A study of Homo sapiens with 3 samples.

Results

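The subunits of RNA polymerase I, II and III were followed in RNA-seq of H660 (NCI-H660), a human line of neuroendocrine prostate cancer. Members were taken by symbol alone, as the rows of the gene table named POLR1, POLR2 or POLR3 plus 1 or 2 letters and an optional digit. The rule matched 42 of 58735 rows, with 5 POLR1, 22 POLR2 and 15 POLR3 rows. Of these, 31 were protein-coding rows under 30 symbols, since POLR2J3 had a pair of rows, and 11 were pseudogenes or long noncoding RNAs. Parental H660 cells had been treated for 24 h with vehicle (DMSO), with 2.5 µM JG231 or with 5 µM JG231, an allosteric inhibitor of the chaperone HSP70. Each condition was 1 library, so no value has a standard deviation and no test was possible. Both JG231 libraries were compared with the same DMSO library, so a deviation of that library moves both comparisons. In RNA of a whole culture, less RNA of a gene per cell and fewer cells that express it cannot be told apart.

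RNA polymerase I transcribes the ribosomal RNA precursor, polymerase II transcribes protein-coding genes, and polymerase III transcribes transfer RNAs, 5S ribosomal RNA and other small RNAs. The enzymes are built on a common plan, with a pair of large catalytic subunits, an assembly platform related to the alpha subunit of bacterial polymerase, and a protruding stalk. POLR2E, POLR2F, POLR2H, POLR2K and POLR2L are parts of all 3 enzymes despite their names, and POLR1C and POLR1D are parts of both polymerase I and polymerase III.

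Depth, recovered from the steps of low values, was about 16.1 M, 20.3 M and 24.1 M fragments for DMSO, 2.5 µM and 5 µM, and 21862, 19352 and 17293 rows were above 0. The labels call the cells a prostatic adenocarcinoma, while the neuroendocrine markers CHGA, SYP, ENO2, NCAM1 and INSM1 were above 1 FPKM in every library. CHGA stood at 46.0 FPKM in DMSO, 15.0 at 2.5 µM and 12.7 at 5 µM. The luminal prostate marker KLK2 was listed at 0 in every library, and KLK3 did not exceed 0.134 FPKM. MYCN reached 0.693 FPKM in DMSO, its highest value.

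FPKM is the number of fragments scaled by transcript length and by the library's mapped fragments. Of the 31 protein-coding rows, 27 were above 1 FPKM in each of the 3 libraries. POLR2K, a small subunit shared by all 3 polymerases, had the highest level in every library, at 75.4, 110.9 and 120.4 FPKM for DMSO, 2.5 µM and 5 µM. Summed over its protein-coding rows, POLR2 stood at 335.6, 431.8 and 479.6 FPKM. The POLR3 rows summed to 70.8, 113.2 and 121.3 FPKM, and the POLR1 rows to 24.9, 31.3 and 29.9 FPKM. As deposited, all 3 sums were higher in both JG231 libraries than in DMSO, and only the POLR1 sum was lower at 5 µM than at 2.5 µM. These directions may change with other scalings of the libraries, for which the sums were not computed. POLR3K (17.5, 33.7 and 48.6 FPKM) and POLR3C (14.1, 38.9 and 31.9 FPKM) were large parts of the POLR3 sum. Levels of different genes are less certain than the changes of 1 gene, because FPKM depends on the length assigned to the gene. For POLR1D the union of its annotated exons is 12363 bp and its canonical transcript 693 bp.

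**Figure D1:**
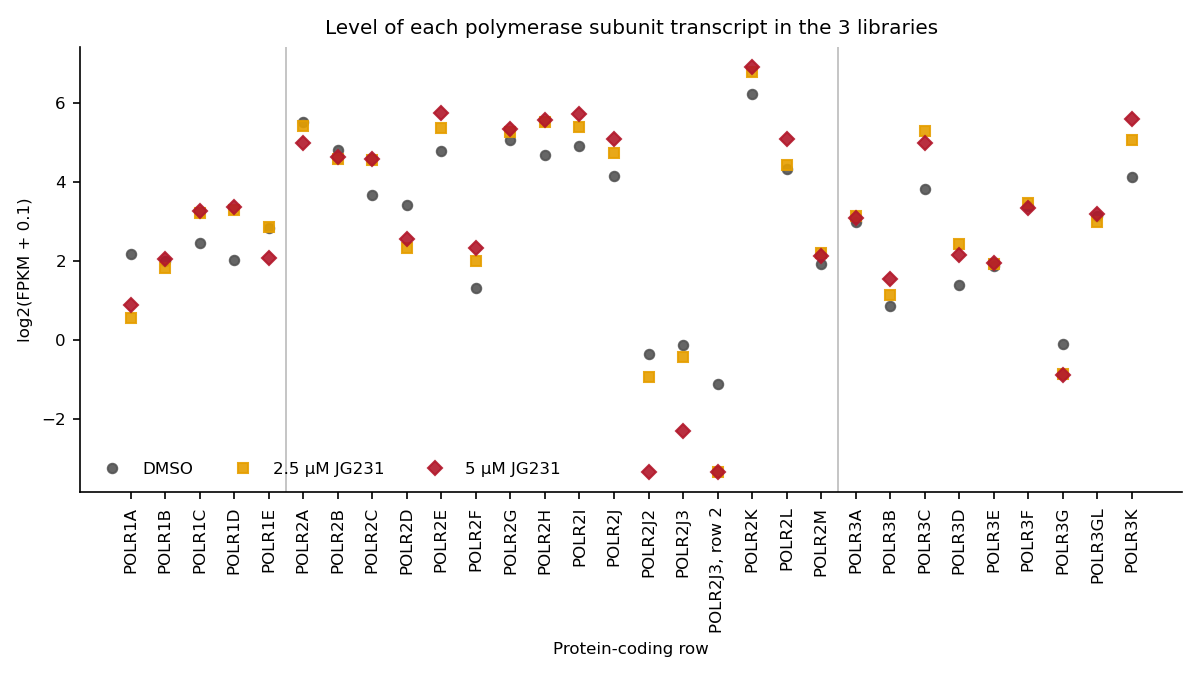
Level of 30 protein-coding rows in the 3 libraries, as log2(FPKM + 0.1), with vertical lines between POLR1, POLR2 and POLR3 and 1 point per library. "Row 2" marks the other POLR2J3 row. Of the rows shown, 26 lay above 1 FPKM (about 0 on the axis) in every library, while POLR2J2, both POLR2J3 rows and POLR3G lay below it.

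The comparison of each dose with DMSO asked how the subunit transcripts of the 3 polymerases differed after JG231. Changes are given as log2 of the ratio of FPKM + 0.1, which understates the change of low genes. A member was counted as higher or lower where this log2 change exceeded 0.25 in either direction, a 1.19-fold difference. At 2.5 µM, 14 of the 27 members (51.9%) were higher and 3 (11.1%) were lower. Over all protein-coding genes above 1 FPKM in either library, 38.3% were higher and 37.2% lower, and over all genes 36.4% and 43.4%. At 5 µM, 15 members (55.6%) were higher and 5 (18.5%) lower, beside 38.0% and 39.6% of protein-coding genes and 36.5% and 45.1% of all genes. With the libraries scaled on nuclear protein-coding genes instead, 10 members were higher and 9 lower at 2.5 µM, beside 23.8% and 53.1% of protein-coding genes. At 5 µM on that scale, 14 were higher and 11 lower, beside 22.0% and 58.0%. With a log2 threshold of 1, 3 members were higher and 3 lower at 2.5 µM, beside 10.7% and 12.4% of protein-coding genes. At 5 µM, 3 members were higher and 1 was lower, beside 12.4% and 15.3%.

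The 3 prefixes differed in their medians. The median POLR2 change was 0.47 at 2.5 µM and 0.77 at 5 µM over 13 members, of which 5 are subunits shared by all 3 enzymes. For POLR3 it was 0.15 and 0.089 over 9 members and for POLR1 0.029 and 0.054 over 5 members. Both signs depend on the scaling (values in the next paragraph). The median protein-coding gene stood at 0.015 and -0.014. A median near 0 did not mean that POLR1 members stayed level, since they spanned -1.62 to 1.28 at 2.5 µM and -1.29 to 1.34 at 5 µM. Between the doses, 13 members were higher at both, 3 lower at both (POLR1A and POLR2D among them), and none was counted in opposite directions. A further 6 passed the threshold at neither dose and 5 at 1 dose only. The matching shares of all protein-coding genes were not computed, and the 2 changes of a gene have their DMSO value in common. These counts therefore do not show whether the members agreed between doses more than other genes.

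When the shared subunits and the paralogues were left out, so that each subunit belonged to 1 polymerase, the POLR2 median was 0.20 at 2.5 µM and 0.30 at 5 µM over 7 subunits. The POLR1 median was then -0.17 and -0.76 over 3 subunits, below 0 at both doses, and the POLR3 median was as before. The negative POLR1 medians depend on the symbol rule. With the polymerase I subunits POLR1F, POLR1G and POLR1H, which the table lists under older symbols, the median was 0.22 over 6 subunits at 2.5 µM and 0.054 over the 5 tested at 5 µM. With CRCP, a further polymerase III subunit, the polymerase III median was 0.18 and 0.24 over 10 subunits. With only members at a mean of at least 5 FPKM, the POLR1 median was instead 0.78 and 0.83 over 3 members, above the POLR2 median of 0.47 and 0.77 over 11. With that filter the median protein-coding gene stood at 0.21 and 0.22, above the POLR3 median of 0.15 and 0.089 over 5. The order of the prefixes also changed with transcript length. With the trend of the change with length over protein-coding genes removed, the 5 µM medians were 0.37 for POLR1, 0.18 for POLR2 and 0.48 for POLR3, and at 2.5 µM they were 0.080, 0.16 and 0.35. Scaling the libraries on nuclear protein-coding genes moved the median protein-coding gene to -0.31 at 2.5 µM and -0.43 at 5 µM. The POLR2 median was then 0.15 and 0.37, which lies 0.46 and 0.80 above the median protein-coding gene. On that scale the POLR3 median was -0.16 and -0.31, and the POLR1 median -0.28 and -0.34. Rescaling to a common sum of all genes gave medians of 0.52 for POLR2, 0.20 for POLR3 and 0.078 for POLR1 at 2.5 µM, and of 0.64, -0.041 and -0.074 at 5 µM.

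**Figure D2:**
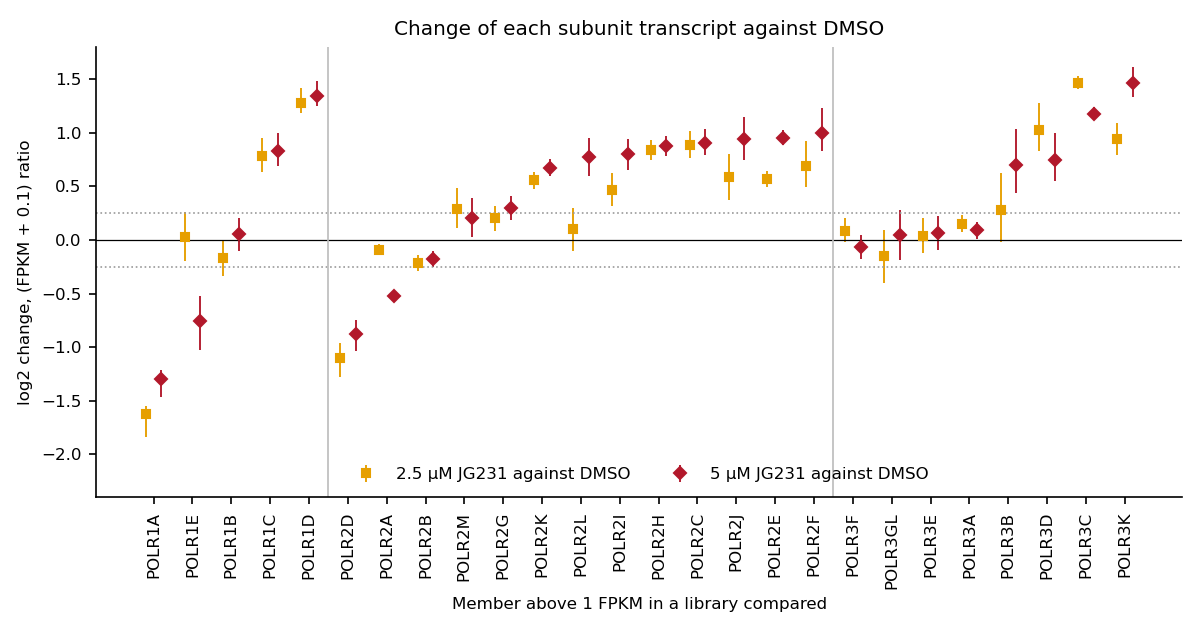
Log2 change of 26 members above 1 FPKM, 2.5 µM (squares) and 5 µM (diamonds) against DMSO, ordered within POLR1, POLR2 and POLR3 by the 5 µM value. Bars are 95% intervals of the plain ratio, without the 0.1 added for the points, from counting error alone, and dotted lines mark 0.25 and -0.25. POLR3K (1.47 at 5 µM), POLR3C (1.46 at 2.5 µM) and POLR1D (1.34 at 5 µM) lie at the top, and POLR1A (-1.62 at 2.5 µM) at the bottom.

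The promoters of 5 members are shown because these members mark the ends of the range and a pair in matching positions. Among members above 1 FPKM, POLR3K had the highest change at 5 µM and POLR3C at 2.5 µM, and POLR1A had the lowest change at both doses. POLR1C and POLR2C are the matching platform subunits of polymerase I and III and of polymerase II. Each sequence is the 250 bases before a RefSeq transcription start on GRCh38.p14, read 5′ to 3′ on the strand of the gene. The windows of POLR1A and POLR1C lie wholly within the GENCODE span of the gene, downstream of its annotated 5′ end. Those of POLR3C and POLR2C overlap that span in part. Capitals mark an E-box (CACGTG) or an ETS motif (CCGGAAG) on either strand. The windows lie at chr16:53609-53858, minus strand, at chr1:145823950-145824199, plus strand, at chr6:43516839-43517088, plus strand, at chr16:57462429-57462678, plus strand, and at chr2:86105887-86106136, minus strand.
POLR3K: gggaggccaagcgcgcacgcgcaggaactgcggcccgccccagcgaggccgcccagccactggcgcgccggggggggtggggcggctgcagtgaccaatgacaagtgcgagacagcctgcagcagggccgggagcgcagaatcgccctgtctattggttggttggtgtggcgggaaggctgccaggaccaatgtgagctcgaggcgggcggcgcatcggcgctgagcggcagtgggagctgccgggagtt
POLR3C: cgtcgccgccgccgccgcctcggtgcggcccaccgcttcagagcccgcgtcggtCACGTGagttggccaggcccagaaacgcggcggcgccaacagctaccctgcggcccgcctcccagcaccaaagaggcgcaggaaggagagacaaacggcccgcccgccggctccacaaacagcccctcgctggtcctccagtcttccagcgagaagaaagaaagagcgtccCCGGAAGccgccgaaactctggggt
POLR1C: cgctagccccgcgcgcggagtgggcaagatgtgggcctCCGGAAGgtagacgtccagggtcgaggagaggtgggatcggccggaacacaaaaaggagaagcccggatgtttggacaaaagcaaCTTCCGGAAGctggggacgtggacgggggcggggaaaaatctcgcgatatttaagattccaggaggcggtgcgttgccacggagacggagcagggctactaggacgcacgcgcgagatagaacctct
POLR2C: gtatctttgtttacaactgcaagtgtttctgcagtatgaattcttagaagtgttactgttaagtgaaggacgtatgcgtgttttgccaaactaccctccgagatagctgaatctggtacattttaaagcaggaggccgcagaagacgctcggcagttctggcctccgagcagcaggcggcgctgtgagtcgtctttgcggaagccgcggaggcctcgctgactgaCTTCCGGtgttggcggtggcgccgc
POLR1A: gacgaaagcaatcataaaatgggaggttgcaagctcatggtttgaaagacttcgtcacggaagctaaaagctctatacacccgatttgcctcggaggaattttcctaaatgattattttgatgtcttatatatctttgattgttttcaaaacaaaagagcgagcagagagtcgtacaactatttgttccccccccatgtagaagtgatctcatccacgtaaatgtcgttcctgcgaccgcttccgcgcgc
The window of POLR3C holds 1 E-box and 1 ETS motif, whereas those of POLR3K and POLR1A hold neither. GC content was 71.6% for POLR3K, 69.6% for POLR3C, 61.2% for POLR1C, 53.6% for POLR2C and 43.2% for POLR1A.

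RefSeq windows reaching from 250 bases before to 50 bases after a start were matched by symbol to 21 of the 30 protein-coding symbols, with 27 windows in all. The ETS letters CCGGAAG, which are bound by factors such as GABPA, were present in 11 of these windows (40.7%), beside 10.3% of all 35116 windows. They occurred in 9 members, POLR1B, POLR1C, POLR2C, POLR2D, POLR2F, POLR2J2, POLR2M, POLR3A and POLR3C. Of these, POLR2D was lower and POLR1C, POLR2C, POLR2F and POLR3C higher at both doses. Over all members above 1 FPKM, 13 of 27 were higher and 3 lower at both doses. The changes of all genes with these letters were not computed. The E-box CACGTG, a site bound by MYC proteins and others, was found in 3 members (11.1% of windows, beside 7.26% of all windows), which were POLR3A, POLR3C and POLR3E. TATAAA was found in 1 member, POLR2M, beside 11.5% of all windows. TGATGNAAT, the letters of the composite element bound by ATF4, was in no member window and in 0.991% of all windows. These motifs were chosen after the changes had been seen, and a match is a description of the letters in the window.

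The subunits shared by all 3 polymerases were each higher at 5 µM, although without the length trend POLR2K (0.11) and POLR2L (0.18) no longer passed the threshold there, and POLR2K did not at 2.5 µM (0.16, and 0.24 with the libraries scaled on nuclear protein-coding genes). POLR2E stood at 27.8 FPKM in DMSO, 41.2 at 2.5 µM and 54.0 at 5 µM, a log2 change of 0.57 and 0.96. POLR2H, next to the catalytic core, stood at 25.9, 46.2 and 47.5 FPKM (0.83 and 0.87). Both were lowest in DMSO, but POLR2E was higher again at 5 µM while POLR2H was nearly level between the JG231 libraries. POLR2F had 2.42, 3.95 and 4.92 FPKM (0.69 and 0.99), and POLR2K the values given above (0.56 and 0.68). POLR2L, a zinc-binding subunit of the assembly platform, had 20.03, 21.4 and 34.2 FPKM, so that it was close to DMSO at 2.5 µM (0.098) and higher at 5 µM (0.77), but at 2.5 µM it was lower without the length trend (-0.31). The median of the 5 shared subunits was 0.57 at 2.5 µM and 0.87 at 5 µM. Of the exon bases of POLR2L, 22.8% overlap CD151 on the opposite strand, itself at 30.6, 31.6 and 40.4 FPKM. The sources do not say if strand was used in counting, and the part of CD151 in the POLR2L values was not tested.

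The platform subunits were also higher in every case, except that POLR2J at 2.5 µM (0.19) did not pass the threshold without the length trend. POLR1D, shared by polymerase I and III, had 3.99 FPKM in DMSO, 9.81 at 2.5 µM and 10.3 at 5 µM. Its log2 change of 1.28 and 1.34 was the highest among POLR1 members, and its partner POLR1C had 5.39, 9.32 and 9.65 FPKM (0.78 and 0.83). Their polymerase II counterparts POLR2C and POLR2J had 12.7, 23.5 and 23.8 FPKM (0.88 and 0.90) and 17.8, 26.7 and 34.3 FPKM (0.58 and 0.94). For POLR1C, POLR1D and POLR2C the JG231 libraries lay close together, well above DMSO, and POLR2J was higher again at 5 µM. POLR2J has near-identical copies, so reads could have been split among them in counting.

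The zinc ribbon subunits, related to the elongation factor TFIIS and placed near the active site, were likewise higher in all 3 enzymes. POLR3K, on chromosome 16 from 46407 to 53608 on the minus strand, had 17.5 FPKM in DMSO, 33.7 at 2.5 µM and 48.6 at 5 µM (0.94 and 1.47). POLR2I had 30.3, 41.9 and 52.8 FPKM (0.47 and 0.80), but without the length trend its values were -0.084 and 0.012, neither past the threshold, and at 2.5 µM it was also within it on the scale of nuclear protein-coding genes (0.15). The polymerase I subunit POLR1H, which the table lists under its older symbol ZNRD1 and which the rule therefore did not match, had 1.73, 4.60 and 5.91 FPKM (1.36 and 1.72). All 3 transcripts had their lowest value in DMSO and their highest at 5 µM. POLR2I shares 19.1% of its exon bases with TBCB on the opposite strand, which stood at 51.8, 80.9 and 97.0 FPKM, and the part of TBCB was not tested.

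The largest subunits, which carry the active site together with the second largest, did not move together. POLR1A, on chromosome 2 from 86020216 to 86106155, had 4.49 FPKM in DMSO, 1.39 at 2.5 µM and 1.77 at 5 µM. Its log2 change was -1.62 at 2.5 µM and -1.29 at 5 µM. For the log2 of the plain ratio, without the added 0.1, the counting interval was -1.83 to -1.55 at 2.5 µM and -1.47 to -1.22 at 5 µM, from about 1420, 557 and 840 fragments. POLR2A, whose C-terminal repeats are phosphorylated during transcription, had 45.7, 43.0 and 31.8 FPKM, close to DMSO at 2.5 µM (-0.089) and lower at 5 µM (-0.52), where it was within the threshold without the length trend (-0.16). POLR3A had 7.95, 8.84 and 8.46 FPKM (0.15 and 0.089), which was higher without the length trend (0.37 and 0.48) and lower at 5 µM on the scale of nuclear protein-coding genes (-0.31). On that scale POLR2A was lower at 2.5 µM too (-0.41). Among the second largest subunits, POLR1B (3.94, 3.49 and 4.09 FPKM) and POLR2B (27.9, 24.1 and 24.7 FPKM) were within the threshold at both doses. POLR3B had 1.73, 2.12 and 2.86 FPKM (0.28 and 0.69), and the counting interval of its plain ratio at 2.5 µM, -0.020 to 0.63 on the log2 scale, includes 0. With the libraries scaled on nuclear protein-coding genes, POLR3B was -0.020 at 2.5 µM and 0.31 at 5 µM, while POLR1B (-0.48 and -0.34) and POLR2B (-0.53 and -0.58) passed the threshold as lower. Without the length trend POLR1B passed it as higher at 5 µM (0.50), and with a common sum of all genes POLR2B was lower at 5 µM (-0.31).

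The stalk subunits, which contact the emerging RNA, went both ways. POLR2D had 10.7 FPKM in DMSO, 4.94 at 2.5 µM and 5.79 at 5 µM (-1.10 and -0.88), while its partner in polymerase II, POLR2G, had 33.3, 38.3 and 41.0 FPKM (0.20 and 0.30). At 5 µM POLR2G changed sign with the libraries scaled on nuclear protein-coding genes (-0.10) and did not pass the threshold with a common sum of all genes (0.17). POLR2D was lowest at 2.5 µM and POLR2G in DMSO. In polymerase III, CRCP, a subunit outside the symbol rule, had 26.9, 31.1 and 35.1 FPKM (0.21 and 0.38). The polymerase I stalk subunit POLR1F, listed as TWISTNB, had 4.88, 9.42 and 6.97 FPKM (0.93 and 0.50).

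Some polymerase I and III subunits resemble the initiation factors TFIIF and TFIIE of polymerase II. Of the TFIIF-like subunits, POLR1E had 7.10, 7.25 and 4.15 FPKM, close to DMSO at 2.5 µM (0.029) and lower at 5 µM (-0.76). POLR3D had 2.56, 5.33 and 4.37 FPKM (1.03 and 0.75), and its partner POLR3E had 3.62, 3.72 and 3.78 FPKM. Scaled on nuclear protein-coding genes, POLR3E was past the threshold as lower at both doses (-0.27 and -0.33), and POLR1E at 2.5 µM (-0.28). POLR1G, listed as CD3EAP, was near the expression limit at 0.781, 1.07 and 0.954 FPKM. Of the TFIIE-like subunits of polymerase III, POLR3C had 14.1 FPKM in DMSO, 38.9 at 2.5 µM and 31.9 at 5 µM (1.46 and 1.17), on about 2732, 9559 and 9260 fragments. The other two, POLR3F at 10.5, 11.1 and 10.02 FPKM and POLR3GL at 8.81, 7.94 and 9.08 FPKM, were within the threshold at both doses, though not under other settings. POLR3GL was lower on the scale of nuclear protein-coding genes (-0.46 and -0.35) and without the length trend (-0.49 and -0.45), and so was POLR3F at 5 µM (-0.46 and -0.32 in that order). POLR3G, the alternative form of POLR3GL known from stem cells and tumours, was at 0.835, 0.452 and 0.445 FPKM on 54, 37 and 43 fragments, well under POLR3GL in every library.

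**Figure D3:**
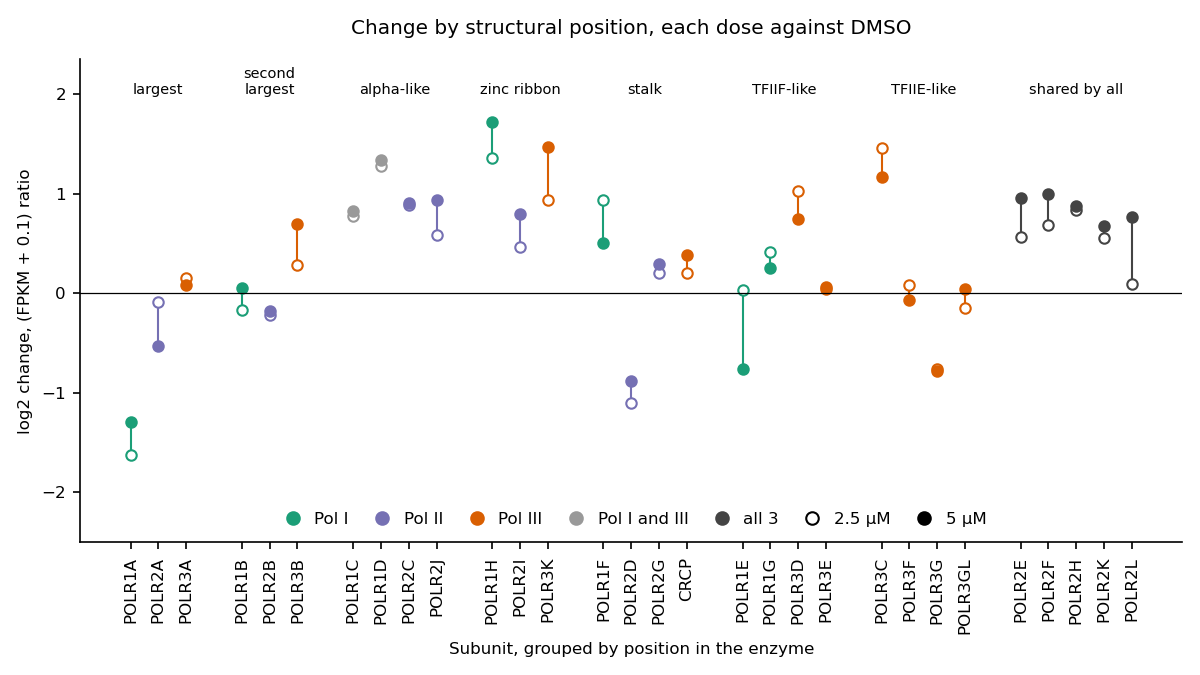
Log2 change of the subunits shown at 2.5 µM (open circles) and 5 µM (filled circles) against DMSO, grouped by its position in the enzyme and coloured by polymerase, with CRCP and the subunits under older symbols included. At 5 µM the platform (0.83 to 1.34), zinc ribbon (0.80 to 1.72) and shared subunits (0.68 to 0.99) all lie above 0, whereas the largest subunits lie between -1.29 and 0.089. These groups also differ in canonical transcript length, 443 to 2854 bp for the former and 6312 to 12480 bp for the largest subunits. Without the length trend, POLR2I stood at 0.012 and POLR3A at 0.48 at 5 µM.

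The grouping by position was drawn up after the changes had been seen and describes them only. POLR2M, a separate protein that associates with polymerase II, had 3.72, 4.56 and 4.31 FPKM (0.29 and 0.21), and without the length trend it passed the threshold at 5 µM (0.35), while at 2.5 µM it did not on the scale of nuclear protein-coding genes (-0.021). The paralogues of POLR2J were at low levels. POLR2J2 had 0.692 and 0.428 FPKM in DMSO and at 2.5 µM and was listed at 0 at 5 µM, and POLR2J3 had 0.818, 0.646 and 0.104 FPKM. The other POLR2J3 row had 0.363 FPKM in DMSO and was listed at 0 in both JG231 libraries. A listed 0 may be a failed estimate, since SUPT4H1, an elongation factor used by every cell, was listed at 0 in all 3 libraries. Of the 11 pseudogene and noncoding rows, 8 were listed at 0 throughout. POLR2J4 had 2.10 FPKM in DMSO, 1.04 at 2.5 µM and 0.557 at 5 µM, while the other row with that symbol, almost all of which lies within the first, had 1.97, 2.24 and 6.20 FPKM on 10, 15 and 48 fragments. POLR2KP1 had 2.22 FPKM in DMSO on 6 fragments and was listed at 0 in the JG231 libraries.

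Between the JG231 libraries the members differed less, and so did protein-coding genes. The median absolute log2 change of the members was 0.22, beside 0.56 at 2.5 µM and 0.77 at 5 µM against DMSO. For protein-coding genes it was 0.25, beside 0.54 and 0.60. At 5 µM against 2.5 µM, 9 of 27 members were higher and 4 lower, beside 22.2% and 27.1% of protein-coding genes and 26.8% and 30.1% of all genes, and the median was 0.098, which turned to -0.081 with the libraries rescaled to a common sum and was 0.014 when scaled on nuclear protein-coding genes. POLR1E was lower at 5 µM by the most (-0.79), followed by POLR2A (-0.43). POLR2L (0.67) and POLR3K (0.53) were higher at 5 µM.

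Across the table, shorter transcripts tended to be higher and longer ones lower after JG231, and the correlation among the members had the same sign. Over 27 members, Spearman's correlation of the change with canonical transcript length was -0.45 at 2.5 µM and -0.54 at 5 µM, as a description over genes that share the same libraries. Over all protein-coding genes it was -0.24 and -0.35. Of the 9 members under 1500 bp, 6 were higher at 2.5 µM and 8 at 5 µM, beside 55.4% and 62.7% of protein-coding genes of that length, and 0 were lower, beside 25.5% and 21.7%. Of the 9 members of 4000 bp or more, 3 were higher and 3 lower at 2.5 µM, beside 26.6% and 46.5%, and 2 were higher and 4 lower at 5 µM, beside 21.4% and 54.9%. Their median at 5 µM was 0.054. The median protein-coding gene under 1500 bp changed by 0.52 at 5 µM, and that of 4000 bp or more by -0.34. The part of length in the changes of single subunits was not tested. With the length trend removed, POLR1A stood at -1.23 at 2.5 µM and -0.62 at 5 µM, and POLR2G at -0.32 at 5 µM.

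**Figure D4:**
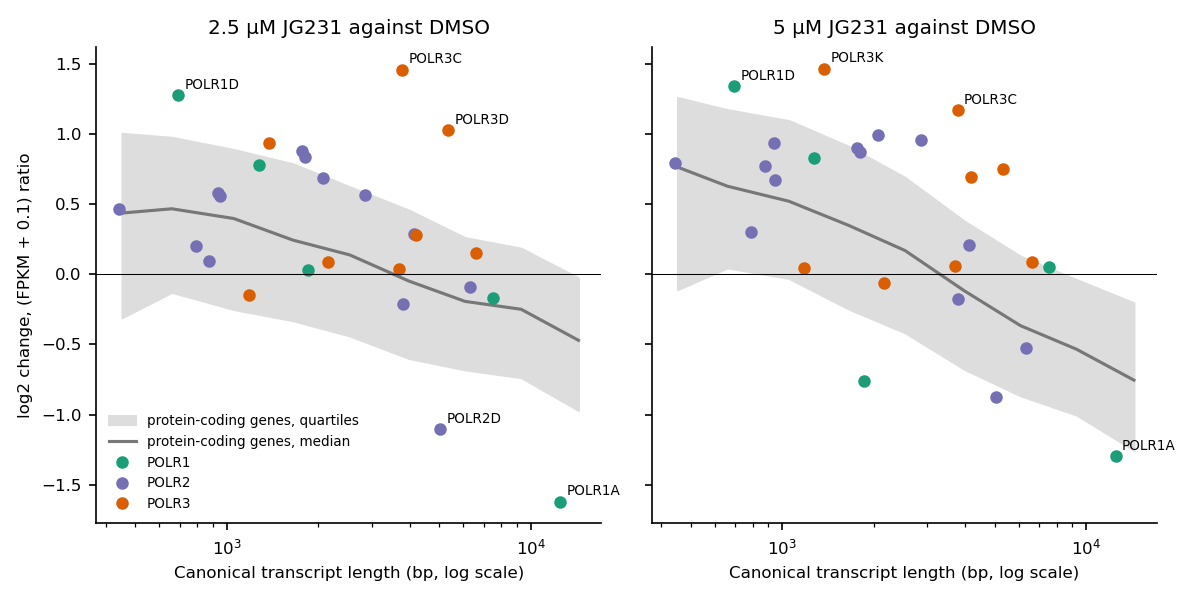
Log2 change against canonical transcript length (log scale) at 2.5 µM (left) and 5 µM (right), with 26 members coloured by prefix, those past 1 in either direction named, and the median and quartiles of protein-coding genes in grey. The grey median falls with length, and POLR3C and POLR1D lie above the quartile band at both doses.

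With the threshold of 0.25 kept, 12 of the 17 members counted as changed at 2.5 µM stayed past it under each pseudocount, filter, scaling and length setting that tested them. Among them were POLR1C, POLR1D, POLR2C, POLR2E, POLR2F, POLR2H, POLR3C, POLR3D and POLR3K above and POLR1A and POLR2D below. At 5 µM, 15 of 20 did, with POLR2J and POLR3B added above and POLR1E below. POLR1A, POLR2F, POLR3B and POLR3D were not tested with the filter on a mean of at least 5 FPKM. The share of all protein-coding genes that stay past the threshold under the same settings was not computed. These counts therefore do not show whether the members were more stable than other genes.

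The factors that work with the polymerases did not share 1 direction. Over lists this short the counts are to be read beside the 38.0% of protein-coding genes that were higher and the 39.6% that were lower at 5 µM. Values of the factors are given as deposited, and other scalings or removal of the length trend were not computed for them. Of 7 polymerase I factors above the expression limit at 5 µM, 2 were higher and 2 lower. UBTF, which binds ribosomal DNA, had 16.3, 16.04 and 13.5 FPKM (-0.28 at 5 µM), and RRN3, which recruits polymerase I, had 13.8, 16.1 and 14.7 FPKM. Within the promoter selectivity complex, TAF1D had 5.83, 24.3 and 21.2 FPKM (2.04 and 1.84) and TAF1A 3.80, 8.21 and 8.50 FPKM (1.09 and 1.14), and TAF1C was lower at 5 µM (-0.35).

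Of 16 polymerase III factors, 8 were higher and 3 lower at 5 µM. MAF1, the repressor of polymerase III, had 95.8 FPKM in DMSO, 161.8 at 2.5 µM and 225.7 at 5 µM (0.75 and 1.23). BRF2, used at a small class of polymerase III promoters, had 1.71, 2.05 and 3.78 FPKM (0.24 and 1.10), while BRF1, used at transfer RNA genes, stayed within the threshold at 5.11, 5.36 and 4.68 FPKM. BDP1 (-0.45) and SNAPC4 (-0.44) were the lowest of the list at 5 µM.

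Of 17 general factors of polymerase II, 9 were higher and 5 lower at 5 µM. TBP, which serves all 3 polymerases, had 19.0, 23.2 and 23.2 FPKM (0.29 and 0.29). GTF2F2 (1.43) and GTF2E2 (1.08) were the highest at 5 µM, and ERCC2 (-1.12) was lower. GTF2A1, a subunit of TFIIA, had 6.19 FPKM in DMSO and 1.44 and 1.51 in the JG231 libraries (-2.03 and -1.97). Among 13 pausing and elongation factors, 8 were higher and 4 lower. TCEA1, which encodes TFIIS, had 66.5, 214.8 and 214.0 FPKM (1.69 and 1.68) and NELFA 11.05, 31.2 and 30.9 FPKM (1.49 and 1.48), whereas CDK9, the kinase of P-TEFb, had 28.4, 17.8 and 17.3 FPKM (-0.67 and -0.71) and ELL was lower at 5 µM only (-0.90).

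Of 9 factors of polymerase assembly, among them HSP90 cochaperones, 6 were higher and 1 lower at 5 µM, with PIH1D1 (0.98) and GPN3 (0.72) highest, RPAP2 lowest (-0.82) and RPAP3 next (-0.21). Of 4 genes of mitochondrial transcription, 2 were higher and 1 lower. POLRMT, the mitochondrial polymerase, had 20.7, 29.5 and 28.4 FPKM (0.51 and 0.45), and TFB2M (0.57), TFAM (0.19) and TEFM (-0.60) are given at 5 µM.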

How the data were processed

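RNA-seq of 3 libraries of H660 cells, 1 per condition, was analysed. Per the study's methods the authors used HISAT for alignment and StringTie for quantification, while the submitters' processing notes name HISAT2 and featureCounts with GRCh38 (hg38). Versions were not given in the sources used here. The authors deposited gene-level FPKM without replicates in a table of 58735 rows. RNA input also differs between those sources, and use of strand in counting is not stated.

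From the FPKM values, changes were computed as log2 of the ratio of FPKM + 0.1 for genes above 1 FPKM in either library, with a threshold of 0.25, after the study's methods. FPKM are not counts, so no count model was used. Rows were matched by identifier to GENCODE release 44 (58207 rows). In 27 rows the symbol was a date. Fragments were recovered from steps of FPKM times exon length in genes with 1 annotated transcript, and are approximate. Of the values under 50 fragments in those genes, 90.7%, 88.3% and 86.9% were whole within 0.1. Most members have several annotated transcripts, and their fragments and intervals were not checked in this way. The 95% intervals (exact, from the recovered fragments, for the plain ratio) cover counting error only. The per-sample columns not used numbered 0.

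Protein-coding members are named, as are further rows above 1 FPKM, and some that the rule selects are counted but not reported here by name or in the figures. Of each further list, the members with the highest and lowest changes at 5 µM (up to 2 each) are named, with TBP, MAF1, UBTF, RRN3, BRF1, BRF2 and POLRMT. Members and lists were chosen with earlier results of these data known. Promoters came from RefSeq (GRCh38.p14). Alternatives were pseudocounts of 1 and 0.01, no expression filter or a mean of at least 5 FPKM, a threshold of 1, rescaling to a common sum of all or of nuclear protein-coding genes, centring on the median gene, lowess removal of the length trend (fraction 0.3), and only subunits of 1 polymerase. The scripts were tested on simulated data. Statistics were computed with statsmodels 0.14.6, scipy 1.17.1 and numpy 2.4.6. Tables were handled with pandas 2.3.3 in Python 3.11.15, and figures drawn with matplotlib 3.10.9.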

Additional observations from a re-analysis of the deposited data

How the results depend on the processing

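No paired analysis was possible because each condition had 1 library, and for the same reason no replicate could be left out. Depth limits POLR3G, POLR2J2 and POLR2J3, each on 54 fragments or fewer. Rescaling on nuclear protein-coding genes reversed the median of all members at 2.5 µM (-0.021), POLR2M (-0.021) and POLR3B (-0.020) at 2.5 µM and POLR2G at 5 µM (-0.10). It moved the POLR3 median to -0.16 at 2.5 µM and -0.31 at 5 µM, raised the members counted as lower to 9 and 11, and moved the median of all members at 5 µM against 2.5 µM to 0.014. Rescaling to a common sum of all genes moved that median to -0.081 and the POLR2 median at 5 µM against 2.5 µM to -0.061. Removing the length trend reversed POLR2I at 2.5 µM (-0.084) and POLR2G at 5 µM (-0.32), and raised the members counted as lower at 2.5 µM from 3 to 5. With no expression filter, 7 of 31 members were lower at 2.5 µM and 9 at 5 µM, and with a mean of at least 5 FPKM, 1 and 3 of 19, since these settings change the members tested. The median protein-coding gene stood at -0.069 and -0.13 without a filter and at 0.21 and 0.22 with that mean. Shares of protein-coding genes past the threshold were not computed for these filters or with the length trend removed. With a threshold of 1, 3 members were higher at each dose, and 1 was lower at 5 µM. Keeping only symbol-matched subunits of 1 polymerase took the POLR1 median to -0.17 at 2.5 µM and -0.76 at 5 µM and the POLR2 median to 0.20 and 0.30, while with the polymerase I subunits under older symbols the POLR1 median was 0.22 and 0.054. A mean of at least 5 FPKM took the POLR1 median to 0.78 and 0.83. The causes were not tested. Pseudocounts of 1 and 0.01 and centring on the median gene kept the direction of every median and each count within 1.5 times.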
